A study of Mus musculus with 2 samples.

Results

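The 33 genes described here act in G2 and M phase, the stages in which a cell that has copied its DNA condenses its chromosomes, builds a spindle and splits. They were chosen by name, and all 33 are among the 29004 features of the deposited matrices, each once. The data are droplet single-cell RNA counts from whole mouse lung at postnatal day 6, when alveolar septa form. Pups of both groups carried Gli1CreERT2/+ and R26RtdT/+, that is, a tamoxifen-inducible Cre recombinase in 1 copy of the Hedgehog target gene Gli1 and a tdTomato reporter, and both groups received tamoxifen at day 1. At day 3 the control group received IgG and the other group 5E1, an antibody that binds Hedgehog ligands and blocks signalling. The lungs of 3 pups were pooled per condition, so each condition is 1 library and no difference between them has a replicate check.

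Annotated cells numbered 13509 with IgG and 9454 with 5E1, and gave 77436890 and 58890639 UMIs. A UMI is a molecular barcode that counts 1 captured transcript. Median UMIs per cell were 4541 and 4636. The authors assigned each cell to 1 of 23 clusters without cell type names, and a name ending in "-like" was given here from marker genes. The libraries also differed in the sex of their cells. Y-linked genes gave 4 UMIs in the IgG library and 5009 in the 5E1 library, and Xist, the RNA of the inactive X chromosome, was detected in 91.6% and 27.4% of cells. The list level in the main classes is therefore also given for cells with Xist and no Y-linked UMI, 12366 in the IgG and 2289 in the 5E1 library. These cells of the IgG library are also set against the 6864 cells of the 5E1 library with no Xist UMI. That set joins cells with a Y-linked UMI and cells with neither mark, so it cannot be read as male cells alone. Detection of Xist depends on depth, and the 3 sets had medians of 4782, 5226 and 4300 UMIs. The libraries share 243 barcodes, 184 of them among annotated cells.

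In G2, Cdk1 bound to B cyclins starts mitosis, Polo-like and Aurora kinases build the spindle, and the spindle checkpoint holds chromosomes until each kinetochore is attached. The ubiquitin ligase APC/C with its activator Cdc20 then destroys the cyclins and lets the cell divide. Transcripts of these genes accumulate late in the cycle and are nearly absent from resting cells, so their level is widely used to mark cycling cells. In the postnatal lung, fibroblasts, myofibroblasts, endothelial cells and AT2 cells (the surfactant-producing cells of the alveolus) divide while septa form, and Gli1 marks mesenchymal cells that receive Hedgehog signals.

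Late cell cycle promoters are known for 2 short elements, the CCAAT box bound by NF-Y and the cell cycle genes homology region (CHR) bound by the MuvB complexes. RefSeq promoter windows of build GRCm38.p6, from 250 bases before to 50 bases after the start, were matched for 30 of the 33 genes, all but Aurkb, Tpx2 and Kif20a. The CHR was searched as TTTGAA or TTCGAA and the CCAAT box as CCAAT, both on either strand and counted whether or not matches shared bases. The CHR letters were present in 24 of the 30 windows (80.0%) against 19.2% of all 32851 promoters of that length, and the CCAAT letters in 23 (76.7%) against 37.4%. Both were present in 21 (70.0%) against 7.52%. The 100 bases before the start of 5 of the 30 genes are given as examples, with CHR and CCAAT matches on either strand in capitals.
Cdk1 (chr10:69352913-69353012, minus strand): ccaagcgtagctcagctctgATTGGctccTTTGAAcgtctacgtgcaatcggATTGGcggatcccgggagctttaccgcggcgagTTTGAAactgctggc
Cdc20 (chr4:118437344-118437443, minus strand): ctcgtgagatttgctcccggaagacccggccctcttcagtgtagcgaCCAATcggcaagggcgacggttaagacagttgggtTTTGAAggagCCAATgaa
Top2a (chr11:99024190-99024289, minus strand): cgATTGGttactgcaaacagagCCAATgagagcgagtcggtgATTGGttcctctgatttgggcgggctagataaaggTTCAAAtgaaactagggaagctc
Ube2c (chr2:164769829-164769928, plus strand): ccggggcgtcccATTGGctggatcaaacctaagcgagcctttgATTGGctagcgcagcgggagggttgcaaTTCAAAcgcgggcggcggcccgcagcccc
Ccnb2 (chr9:70421555-70421654, minus strand): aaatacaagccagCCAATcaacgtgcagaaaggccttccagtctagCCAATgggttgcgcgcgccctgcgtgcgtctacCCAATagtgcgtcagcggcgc
Cdk1 holds 2 CHR and 2 CCAAT matches, and in Cdc20 a CHR match lies between 2 CCAAT matches. Top2a and Ube2c hold 3 and 2 CCAAT matches upstream of a CHR match on the other strand (TTCAAA). Ccnb2 holds 3 CCAAT matches and no CHR match in these 100 bases. In the same 100 bases, 7 of the 30 genes (23.3%) held both elements, against 1.14% of all promoters. Cdk1, Cdc20, Top2a and Ube2c are among these 7, so the examples are not typical of the 30. Plk1 and Aurka held CCAAT matches only, Mki67 a CHR match only, and Birc5 and Bub1b neither. A match is a description of letters, and binding was not measured here.

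Across all annotated cells the 33 genes gave 114127 UMIs with IgG and 66425 with 5E1. Their summed level was 1474 and 1128 CPM (counts scaled to the same total of UMIs), a ratio of 0.765 (5E1 over IgG, 95% interval 0.758–0.773). All 33 were lower in the 5E1 library, 2 of them at least 1.5-fold lower, a size reached by 6.44% of all genes that had 20 or more UMIs over both libraries. The median over the 33 was −0.41 on the log2 scale against −0.010 over all such genes. Between the cells with Xist the ratio was 0.935 (0.921–0.948), 28 of 33 were lower and none was lower by 1.5-fold, against 7.89% of all genes. Against the 5E1 cells with no Xist the ratio was 0.669 (0.662–0.677), with 18 genes at least 1.5-fold lower, against 7.80% of all genes. The part of sex, of the individual pups and of 5E1 in this whole-library value cannot be told apart. All intervals cover counting error only, and those of UMI sums treat UMIs as independent although few cells hold most of them.

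The transcripts sat in few cells. No member was detected in 48.1% of IgG and 53.8% of 5E1 cells, and cells with 20 or more different members, 5.63% and 4.82% of the libraries, held 66.7% and 68.5% of all UMIs of the list. Single cells reached all 33 members in both libraries. The cells with 20 or more had a median of 10559 and 11087.5 UMIs, above the library medians. Within the 5E1 library, where both sexes were present, 82 of the 1130 cells with at least 5 members (7.26%, 5.81–8.93%) held both Xist and a Y-linked UMI, as against 219 of 8324 other cells (2.63%, 2.30–3.00%). Median depths of these 2 sets were 9121 and 4355 UMIs. The part of mixed cells and of depth in the levels below was not tested.

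The 23 clusters spanned a wide range. Cluster 12, grouped here with the alveolar myofibroblast-like cells from Tgfbi, P2ry14 and Pdgfra, was highest with 5259 CPM (5201–5318) under IgG and 6661 CPM (6536–6788) under 5E1. Each of the 33 genes had its highest level there in both libraries. Ccnb1 and Spc25 are among the 10 leading genes of cluster 12. The authors' clustering may have drawn in part on this list, which was not tested, so that rank is a description only. Of the other myofibroblast markers, Aspn was at 61 CPM there against 3704 CPM in cluster 21, and Hhip at 33.9 CPM against 241 CPM. Pdgfra, at 165 CPM in cluster 12 and 177 CPM in cluster 23, was at 43.9 CPM in cluster 21. Next came cluster 2, which carries NK and T cell markers, with 3183 and 3591 CPM, the pericyte-like cells with 2609 and 2239 CPM, and the endothelial-like cells with 2116 and 1563 CPM. Matrix fibroblast cluster 20 was lowest in both libraries with 155 and 147 CPM, and the AT1-like cells, the thin gas-exchange cells, came next with 212 and 157 CPM. Neutrophil-like cells, whose mature form no longer divides, had 397 and 265 CPM.

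**Figure D1:**
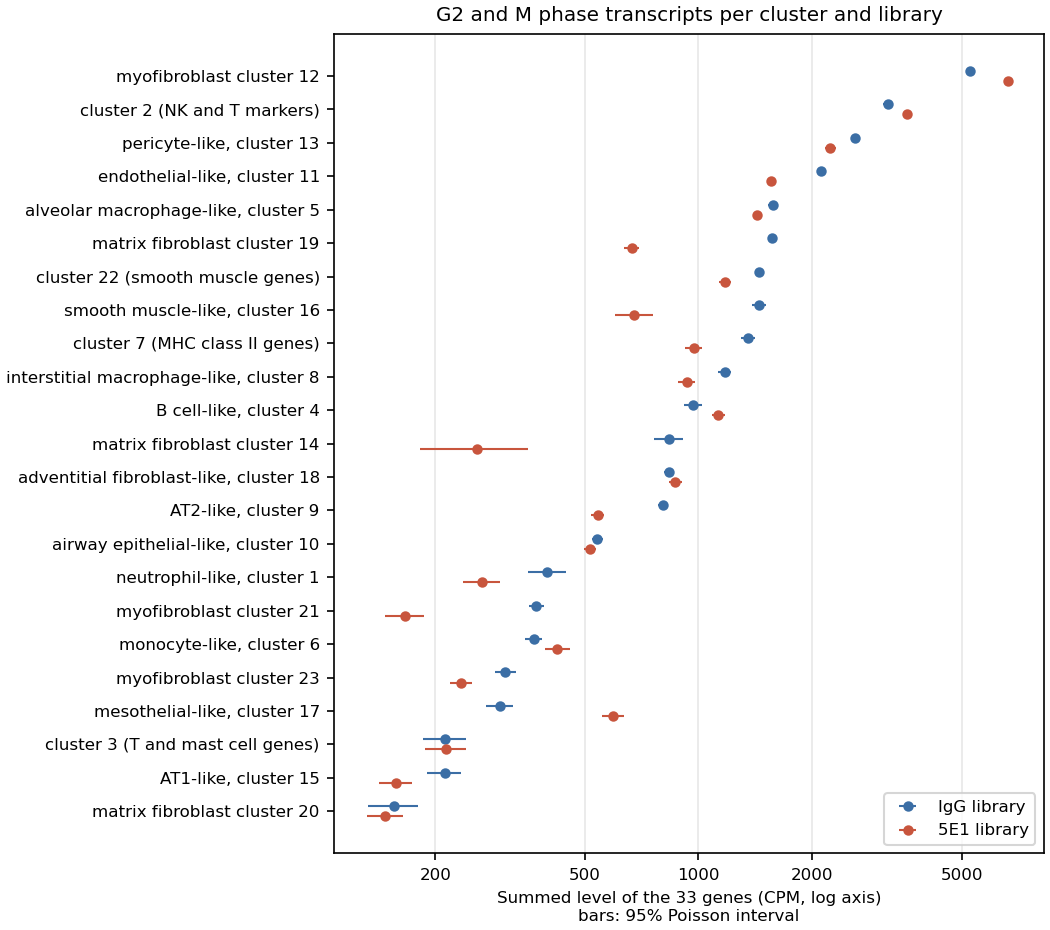
Summed level of the 33 genes in CPM (log axis) for each of the 23 clusters, IgG library in blue and 5E1 library in red, with 95% Poisson intervals of the UMI sums. Cluster 12 is highest in both libraries, and matrix fibroblast clusters 14 and 19, smooth muscle-like cluster 16 and myofibroblast cluster 21 show the widest gaps with a lower 5E1 value.

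Between the libraries, the interval of the ratio lay below 1 in 14 clusters, above 1 in 5 and included 1 in 4. The 4 clusters with at least a 1.5-fold lower list level in the 5E1 library carry mesenchymal markers. Matrix fibroblast cluster 14 had 835 and 257 CPM, cluster 19 had 1573 and 664 CPM, smooth muscle-like cluster 16 had 1447 and 675 CPM and myofibroblast cluster 21 had 371 and 166 CPM, IgG first. In cluster 14, 1 cell held 44.7% of the 38 list UMIs of the 5E1 library. In cluster 16, 1 cell held 37.7% and 5 cells 86.1% of the list UMIs of the 5E1 library. Neutrophil-like and AT2-like cells fell just short of 1.5-fold, at 1.497-fold and 1.495-fold lower. Of the other mesenchymal clusters, cluster 12 had a ratio of 1.27, the adventitial fibroblast-like cells 1.04 and cluster 20 0.948. Pericyte-like cells had 0.858, cluster 22 0.813 and cluster 23 0.763. The mesothelial-like cells were the 1 cluster with an at least 1.5-fold higher level, 297 against 593 CPM. There 6 and 10 cells with at least 5 members carried 72.2% and 89.8% of the list UMIs. When cells rather than UMIs were counted, as the share with at least 2 list UMIs after thinning each cell to 1000 UMIs, the interval of the ratio lay below 1 in 3 clusters (9, 11 and 19), above 1 in cluster 12 and included 1 in the other 19.

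**Figure D2:**
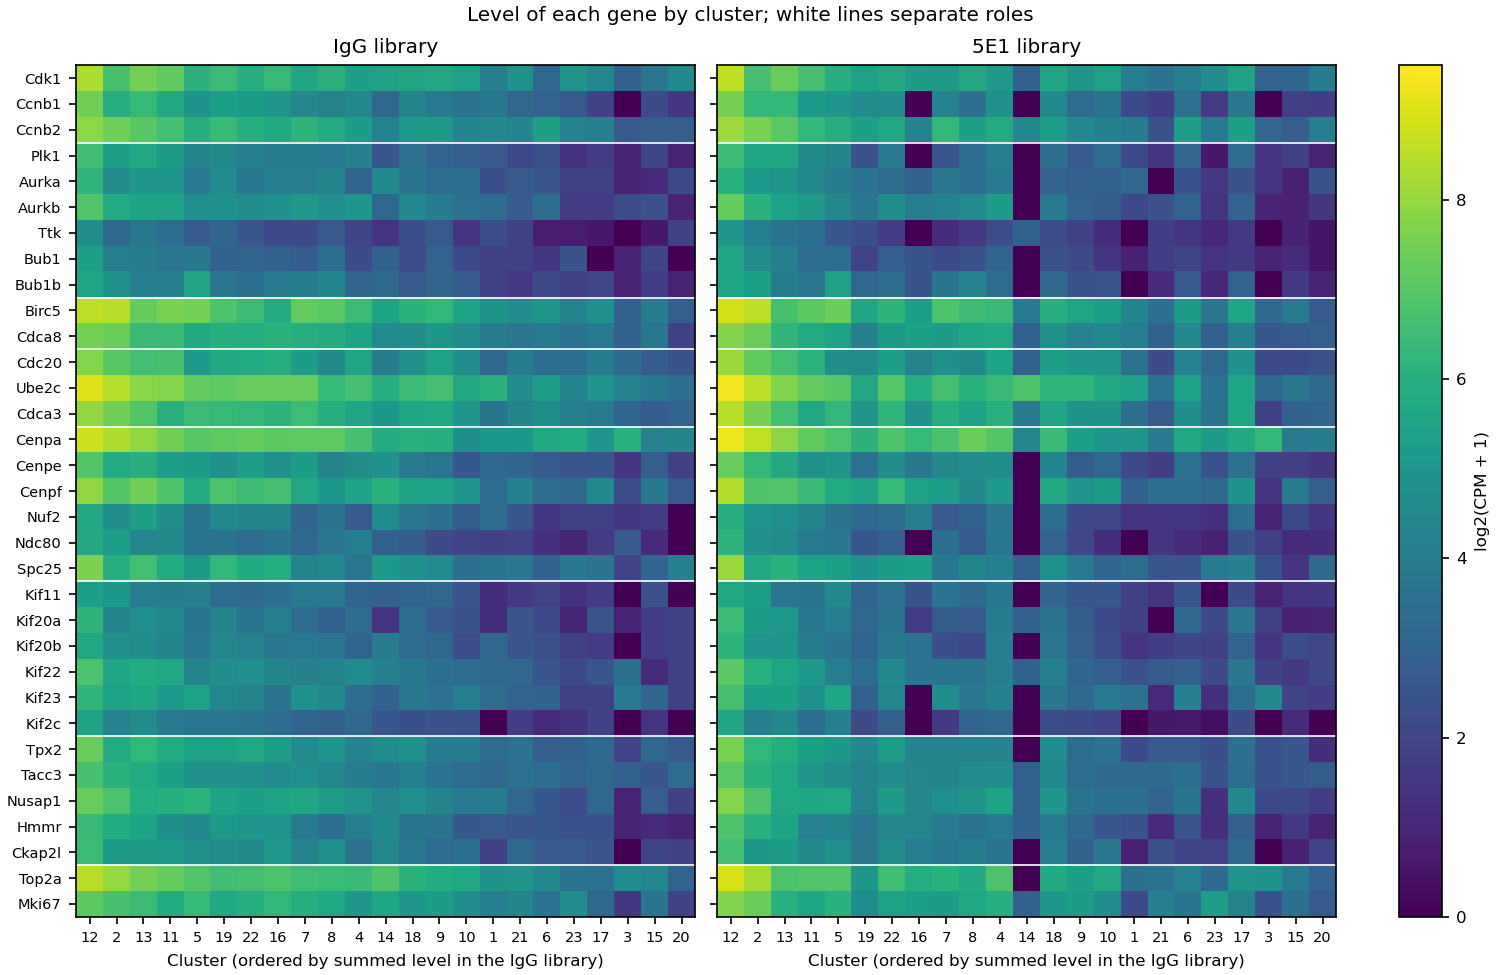
Level of each of the 33 genes (rows, grouped by role) in each cluster (columns, ordered by the summed level in the IgG library), as log2 of CPM plus 1, IgG library left and 5E1 library right. Genes share 1 pattern over clusters, with cluster 12 at the left highest for every gene, and cluster 14 of the 5E1 library rests on 38 list UMIs in 67 cells.

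Over the 46 profiles of 23 clusters in 2 libraries, the correlation of each member with the sum of the list, on log2(CPM + 10), ran from 0.816 for Ttk to 0.976 for Cdca3. Genes outside the list with a pattern most like it included Ccna2, the S and G2 phase cyclin (r = 0.972), Tk1, Knstrn, Ska1, 2810417H13Rik, Racgap1, H2afx, Casc5 and Smc2 (r = 0.934). Ccna2, Racgap1, H2afx, Casc5 and Smc2 belong to the list of other G2 and M genes compared below. The profiles share libraries and depth, and each member is part of the sum it was set against.

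The matrix fibroblast-like cells, the Tcf21- and Wnt2-expressing fibroblasts of the alveolar wall in clusters 14, 19 and 20, showed the widest gap among the 5 classes compared, the others being alveolar myofibroblast-like, endothelial-like, alveolar macrophage-like and AT2-like. The list gave 15201 UMIs in 2306 IgG cells and 1999 UMIs in 1032 5E1 cells, or 1389 CPM (1367–1411) and 417 CPM (399–436), a 3.33-fold lower level in the 5E1 library (3.18–3.49). All 33 genes were at least 1.5-fold lower, against 10.5% of all genes, and their median of −1.76 (log2) stood beside −0.045 for all genes. Cells with at least 2 list UMIs at 1000 UMIs per cell made up 11.04% (9.79–12.4%) of the IgG and 3.24% (2.24–4.52%) of the 5E1 cells, or 22.8% and 13.5% without thinning. The same share in neutrophil-like cells was 3.81% (1.76–7.12%) and 1.63% (0.658–3.33%), at medians of 2456.5 and 1964.5 UMIs against 4483.5 and 4426 in the matrix fibroblast-like cells. That comparison share is not free of list-bearing cells, since 9 and 7 neutrophil-like cells with at least 5 members held 71.0% and 71.1% of the list UMIs of their cluster.

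The difference held within the cells with Xist. There the list stood at 1383 and 548 CPM, a ratio of 0.396 (0.371–0.422), with 33 of 33 genes lower and 31 at least 1.5-fold lower, against 13.7% of all genes. The share of cells with list UMIs was 10.8% with IgG and 5% with 5E1. The 5E1 cells with no Xist were lower still at 210 CPM and 1.79%, with 33 of 33 at least 1.5-fold lower, against 12.5% of all genes. The 2 sets within the 5E1 library thus also stood apart, at like median depths of 4547.5 and 4303 UMIs. Cells with both Xist and a Y-linked UMI are in neither set. All 5E1 cells with a Y-linked UMI, those with Xist included, were at 408 CPM (377–441) and 2.64%, at a median of 4878 UMIs.

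By role, the summed level was between 2.601-fold (2.32–2.93) lower, for Cdk1 with the B cyclins, and 3.90-fold lower, for Birc5 with Cdca8. Cdk1, the kinase that starts mitosis, stood at 79.6 CPM (871 UMIs) with IgG and 28.99 CPM (139 UMIs) with 5E1, a ratio of 0.364 (0.302–0.436), and its partners Ccnb1 and Ccnb2 had ratios of 0.391 and 0.404. Among the mitotic kinases, Plk1, which drives entry into mitosis and spindle assembly, had the lowest ratio of all members, 18.5 CPM against 2.71 CPM (202 and 13 UMIs, ratio 0.147, 0.077–0.257). Aurka, the Aurora kinase of the spindle poles, had 20.9 and 7.93 CPM, and Aurkb, that of the inner centromere, 23.9 and 7.51 CPM. The checkpoint kinases Ttk, Bub1 and Bub1b rest on 8 to 22 UMIs in the 5E1 library, with ratios of 0.375, 0.273 and 0.412. Birc5 and Cdca8, which anchor Aurora B at the centromere, were 3.90-fold (3.35–4.56) lower in sum.

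The genes of protein destruction followed. Ube2c, the ubiquitin-conjugating enzyme of the APC/C, had 123 CPM with IgG and 34.2 CPM with 5E1 (ratio 0.278, 0.235–0.327). Its level was 46.3 CPM in the 5E1 cells with Xist and 18.2 CPM in those without, so both sets lay below the IgG cells with Xist at 122 CPM. Cdc20, the APC/C activator, had 45.8 and 13.98 CPM and Cdca3, a trigger of entry into mitosis, 70.99 and 20.02 CPM. At the centromere, Cenpa, the histone variant that marks it, had 124 and 42.6 CPM (ratio 0.343), and the kinetochore proteins Cenpe, Cenpf, Nuf2, Ndc80 and Spc25 had ratios between 0.246 and 0.303.

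The kinesins, a family of microtubule motor proteins, had ratios from 0.179 for Kif2c to 0.558 (0.333–0.897) for Kif11. The latter, the motor that pushes spindle poles apart, was the member with the highest ratio in this class. Kif11 rests on 90 and 22 UMIs. Of the spindle proteins, Tacc3 had the highest ratio (0.476, 0.353–0.634) and Hmmr the lowest (0.240), with Tpx2, Nusap1 and Ckap2l at 0.303, 0.265 and 0.338. Top2a, the topoisomerase that untangles sister chromosomes, had 86.6 CPM and 19.2 CPM (ratio 0.222, 0.177–0.275), and Mki67, which coats mitotic chromosomes and is the common marker of proliferation, 44.7 and 15.02 CPM (0.336). In the 5E1 library Top2a stood at 34.3 CPM in cells with Xist and 5.83 CPM in cells without, against 86.9 CPM in the IgG cells with Xist.

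**Figure D3:**
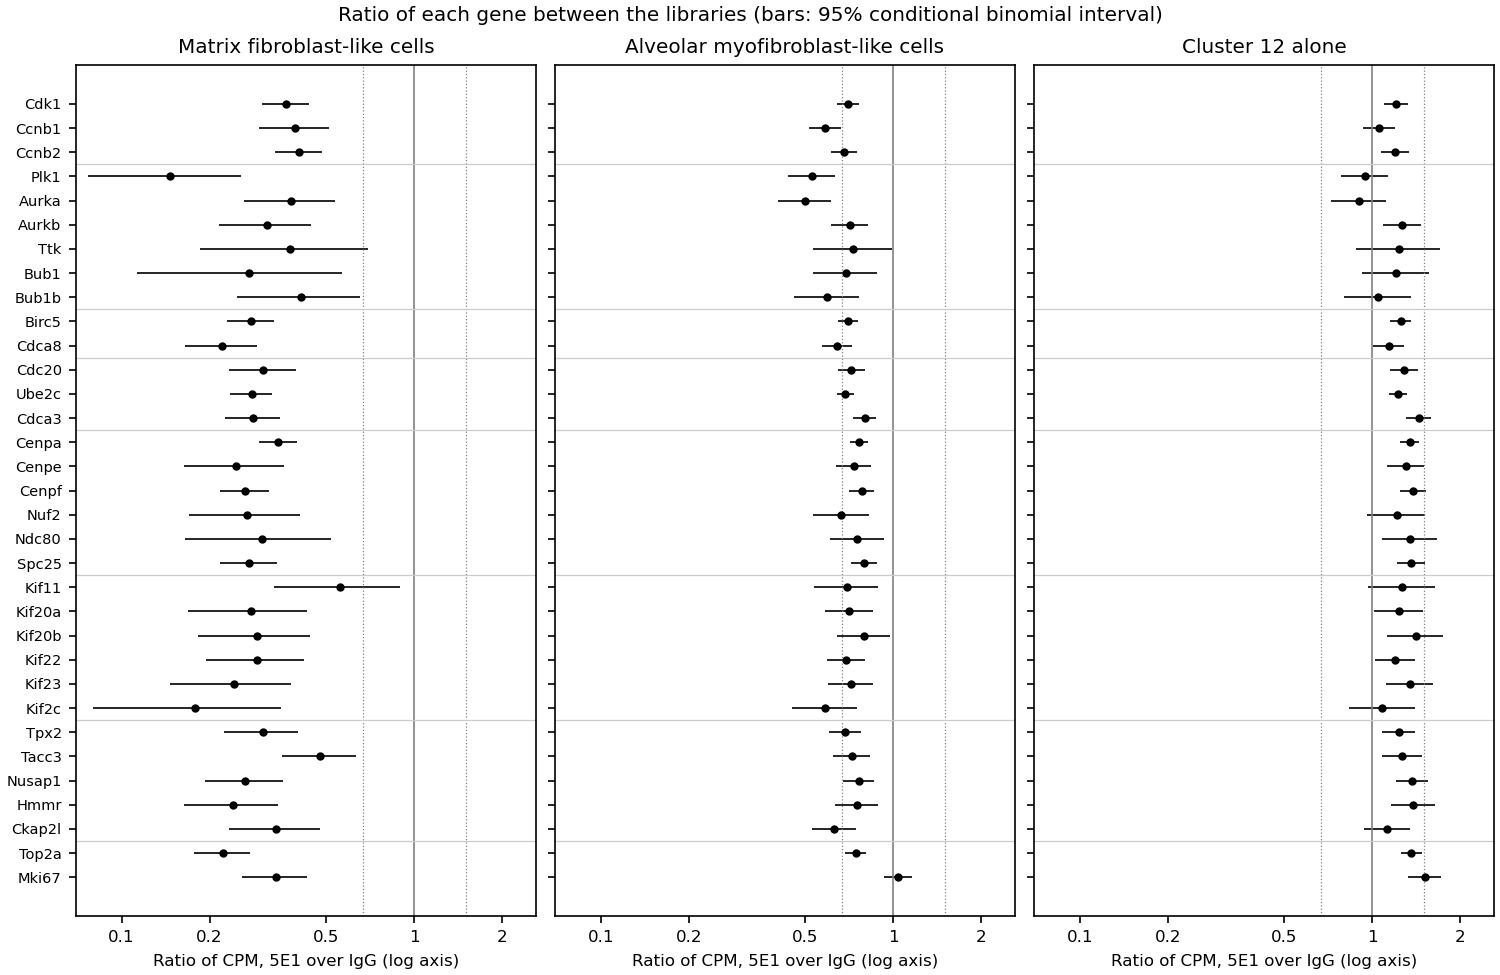
Ratio of CPM, 5E1 over IgG (log axis), of each of the 33 genes in the matrix fibroblast-like cells, the alveolar myofibroblast-like cells and cluster 12 alone, with 95% conditional binomial intervals, solid line at 1 and dotted lines at 1.5-fold either way. Every interval lies below 1 in the left panel, 32 of 33 points lie below 1 in the middle panel and 31 of 33 above 1 in the right panel.

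The makeup of the class differed between the libraries. Clusters 14, 19 and 20 held 11.1%, 80.4% and 8.50% of its cells in the IgG library and 6.49%, 53.4% and 40.1% in the 5E1 library, and cluster 20 had the lowest list level of all clusters in both. Cluster 14 has none of the markers among its 10 leading genes and was grouped from its levels of Mfap4, Macf1, Limch1 and Npnt, with all 11 markers detected. Within cluster 19 alone the list was 2.37-fold lower (2.25–2.49), with 32 of 33 genes at least 1.5-fold lower, against 12.9% of all genes, and the exception was Kif11 at a ratio of 0.783 (0.443–1.31). The share of cells with list UMIs there was 12.4% and 4.41%. With the clusters weighted alike in both libraries the ratio of the class was 0.417. Between cells of cluster 19 with Xist it was 0.518 (0.484–0.554), with 26 of 33 at least 1.5-fold lower, against 16.6% of all genes. Against the 5E1 cells of cluster 19 with no Xist it was 0.195 (0.176–0.216). Within cluster 20 the ratio was 0.948 (0.785–1.15).

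Cells with at least 5 different members numbered 252 of 2306 (10.9%, 9.68–12.3%) with IgG and 29 of 1032 (2.81%, 1.89–4.01%) with 5E1, and they held 91.2% and 73.1% of the list UMIs of the class. The list level within such cells was 8052 and 6018 CPM, a ratio of 0.747 (0.708–0.789), and in those of cluster 19 it was 8146 and 8491 CPM. The number of such cells therefore differed more than the level within them, although that level is bounded from below by the way the cells were picked. Of the 29 cells, 5 (17.2%, 5.85–35.8%) held both Xist and a Y-linked UMI, against 20 of 1003 other cells (1.99%). Capillary endothelial markers, all 11 detected, summed to 469 CPM in the 29 cells and 193 CPM in the other 5E1 cells, and to 198 and 151 CPM in the IgG library. The matrix fibroblast markers were lower in cells with at least 5 members, at 15493 against 21480 CPM in the IgG and 14003 against 25686 CPM in the 5E1 library. The part of mixed cells in the 5E1 level was not tested. One cell held 9.80% and 5 cells 36.3% of the list UMIs of the 5E1 class.

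The alveolar myofibroblast-like cells of clusters 12, 21 and 23, known as contractile cells at the tips of growing septa, had a list level between those of the pericyte-like and endothelial-like cells in both libraries. The list gave 34252 UMIs in 2108 IgG cells and 11911 UMIs in 1104 5E1 cells, or 2413 CPM (2387–2439) and 1736 CPM (1705–1767), a ratio of 0.719 (0.705–0.735). Of the 33 genes 32 were lower, 8 of them at least 1.5-fold lower, against 9.77% of all genes, with a median of −0.50 against −0.081 (log2). Aurka (33.3 and 16.6 CPM, ratio 0.499, 0.403–0.613) and Plk1 (41.1 and 21.7 CPM, ratio 0.528) were lowest, and Ccnb1, Kif2c, Bub1b, Ckap2l, Cdca8 and Nuf2 had ratios from 0.585 to 0.664. Mki67, at 69.5 and 72.3 CPM, was the 1 gene not lower (ratio 1.04, 0.932–1.16). The thinned share of cells with list UMIs was 20.8% (19.1–22.6%) and 14.5% (12.5–16.8%).

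Here the value turned on which cells were compared. Between cells with Xist the ratio was 0.934 (0.903–0.967), with 26 of 33 genes lower and 3 at least 1.5-fold lower, against 14.9% of all genes, and the share was 20.8% and 21.4%. Against the 5E1 cells with no Xist the ratio was 0.623 (0.608–0.639), with 25 genes at least 1.5-fold lower, against 11.2% of all genes, and a share of 12.2%. The 438 5E1 cells with a Y-linked UMI, those with Xist included, were at 1838 CPM, at a median of 6311.5 UMIs. Their share of 16.02% (12.7–19.8%) had an interval that overlapped that of the 5E1 cells with Xist (16.14–27.38%). The 446 cells with neither mark were lower, at 1247 CPM and 9.68%, at a median of 4900.5 UMIs. Plk1 was lower in both the 5E1 cells with Xist and those without, at 23.8 and 19.6 CPM against 41.6 CPM in IgG cells with Xist. Cenpa was at 214 CPM in the IgG cells with Xist, 230 CPM in the 5E1 cells with Xist and 141 CPM in those without, and its ratio between the sets with Xist had an interval that included 1 (0.963–1.20).

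Within the class, cluster 12 held 91.7% and 90.7% of the list UMIs, IgG first, from 640 of 2108 and 168 of 1104 cells. Within it the list was higher in the 5E1 library, with a ratio of 1.27 (1.24–1.29). Between cells with Xist, 623 and 52 in number, the ratio was 1.15 (1.11–1.19). Of the 33 genes 31 were higher, among them Mki67, at least 1.5-fold (136 and 206 CPM), against 6.07% of all genes. Plk1 (94.1 and 88.8 CPM) and Aurka (73.2 and 66.0 CPM) were the 2 others, with intervals that include 1. The share of cells with list UMIs was 58.0% (54.1–61.9%) and 79.0% (72.1–84.9%). Between cells with Xist the ratio of shares was 1.36, with an interval that included 1 (0.960–1.88). With the 3 clusters weighted alike in both libraries the ratio of the class was 1.19 and that of the share 1.25, the reverse of the pooled values, so the lower pooled level went with the smaller part of cells placed in cluster 12. Because that cluster may have been formed in part with these genes, its size and its list level cannot be taken as separate measurements. Clusters 21 and 23 had ratios of 0.447 (0.393–0.507) and 0.763 (0.694–0.838), at levels of 371 CPM or less.

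Myofibroblast-like cells with at least 5 members numbered 511 (24.2%) and 166 (15.04%), with a list level of 6670 and 6935 CPM. Ube2c stood at 662 CPM within these cells in both libraries (interval of the ratio 0.932–1.07) and Cdk1 at 389.9 and 390.3 CPM (0.913–1.10). Plk1 (118 and 90.5 CPM) and Aurka (91.7 and 67.5 CPM) were lower within them as well, and Mki67 was higher (173 and 217 CPM, ratio 1.26, 1.11–1.42).

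Hedgehog targets were compared in cells with at least 5 members and in the others, without a split by Xist. In myofibroblast-like cells with at least 5 members, Ptch1, the Hedgehog receptor and a direct target, was at 80.7 CPM (397 UMIs) with IgG and 9.91 CPM (16 UMIs) with 5E1, 8.14-fold lower (4.95–14.4). Hhip, a target that binds Hedgehog ligands, was at 68.1 and 3.72 CPM, 18.3-fold lower (8.33–50.3). Gli1, the transcription factor induced by the pathway, of which the pups carried 1 intact copy, gave 48 UMIs and 0 UMIs. With the 5E1 sum set to a floor of 3 counts it was 5.25-fold lower, and the lower end of the interval was 4.11-fold. In the other myofibroblast-like cells Ptch1 was 8.19-fold lower (6.15–11.1) and Hhip 6.71-fold lower (5.61–8.08). In the matrix fibroblast-like cells with at least 5 members, Ptch1 was at 93.0 and 16.5 CPM (160 and 4 UMIs) and Hhip at 196 and 8.23 CPM (337 and 2 UMIs). The Ptch1 fold there was 5.65, with a wide interval of 2.16–20.98, and in matrix fibroblast-like cells with fewer than 5 members it was 5.44 (4.36–6.87). Hhip was also lower in some cells outside the mesenchyme, at low levels. It gave 153 and 30 UMIs in endothelial-like cells with at least 5 members (4.47-fold lower, 3.01–6.86) and 64 and 5 UMIs in AT2-like cells with fewer (12.3-fold lower, 5.02–39.3). In alveolar macrophage-like cells with fewer than 5 members Hhip gave 28 and 2 UMIs. With IgG, Hhip was at 16.5 CPM in these AT2-like and 13.2 CPM in these macrophage-like cells. It was at 227 CPM in matrix fibroblast-like cells with fewer than 5 members. Whether the few Hhip UMIs outside the mesenchyme came from RNA of other cells was not tested. In AT2-like and alveolar macrophage-like cells the lower Hhip level was thus not particular to cells that carry the list. Endothelial-like cells with fewer than 5 members showed no such gap in Hhip, with 57 and 76 UMIs (fold 1.08, 0.749–1.54). Ptch1 was 1.59-fold lower (1.18–2.16) in the endothelial-like cells with at least 5 members, but not in those with fewer (fold 0.984, 0.735–1.31). Its interval included 1 in the AT2-like and alveolar macrophage-like cells of both kinds.

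The endothelial-like cells of cluster 11 line the vessels. Their list level was 2116 CPM (2088–2144) with IgG and 1563 CPM (1541–1586) with 5E1, a ratio of 0.739 (0.724–0.753), from 22107 and 18424 UMIs. Of the 33 genes 32 were lower and 7 at least 1.5-fold lower, against 5.85% of all genes, and the share was 23.9% and 17.4%. Between the cells with Xist this was not seen. The list stood at 2129 and 2148 CPM (ratio 1.01, 0.981–1.04), 12 of 33 genes were lower, none reached 1.5-fold in either direction, against 9.08% of all genes lower and 3.89% higher by that much, and the share was 24.9% and 25.4%. The 5E1 cells with no Xist had 1305 CPM, 29 genes at least 1.5-fold lower against 7.24% of all genes, and a share of 13.6%. Top2a, for example, was at 155 CPM in the IgG cells with Xist, 162 CPM in the 5E1 cells with Xist and 98.5 CPM in those without. Birc5 was at 192, 196 and 111 CPM in the same order. For both genes the 2 sets with Xist lay close and the set without was lower. A lower list level without Xist was also seen inside the IgG library. Its 147 endothelial-like cells with no Xist had 1719 CPM and a share of 12.5% (6.41–21.3%), at a median of 1100 UMIs. All 5E1 endothelial-like cells with a Y-linked UMI, those with Xist included, had a list level of 1389 CPM and a share of 18.5%. Those with neither mark had 1226 CPM and 9.57%, at median depths of 9963 and 2708 UMIs.

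In these endothelial-like cells with at least 5 members, 30 of 284 in the 5E1 library (10.6%, 7.24–14.7%) held both Xist and a Y-linked UMI, against 28 of 1030 others (2.72%), at median depths of 15593.5 and 3959 UMIs. Gli1 gave 10 UMIs in such cells of the IgG library and 1 in the other endothelial-like cells of it. Markers of matrix fibroblasts, all 11 detected, summed to 1365 and 943 CPM in the cells with at least 5 members and to 874 and 771 CPM in the others, IgG first. The capillary markers were at 8053 and 8282 CPM in them and 9888 and 10211 CPM in the others. The part of mixed cells in these levels was not tested.

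**Figure D4:**
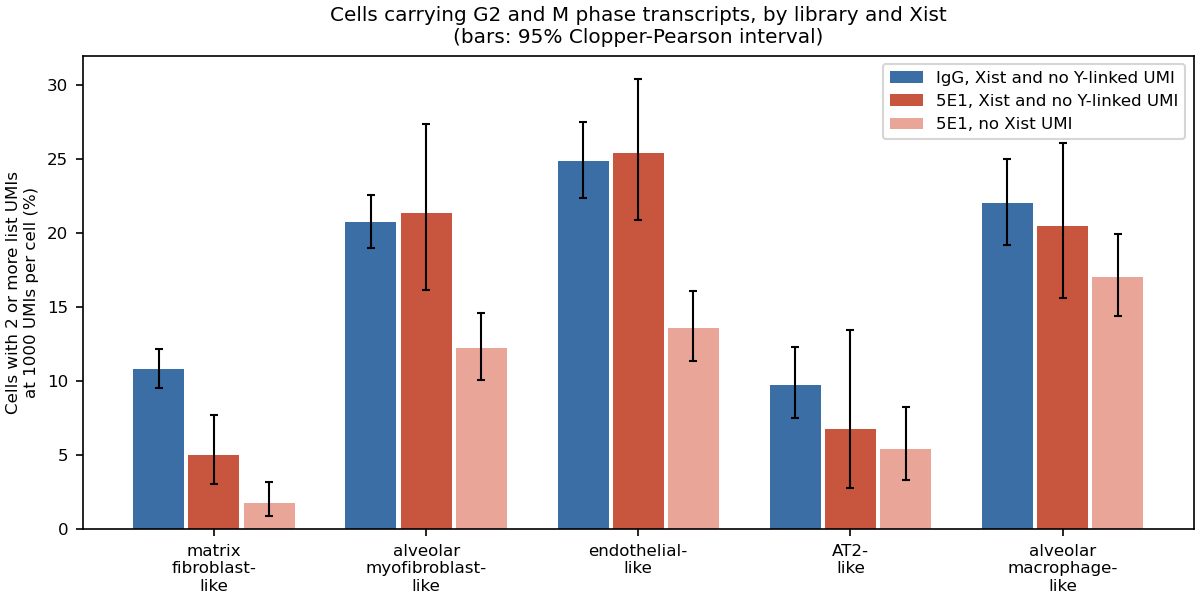
Percent of cells with 2 or more list UMIs after thinning to 1000 UMIs per cell, in 5 classes, for IgG cells with Xist (blue), 5E1 cells with Xist (red) and 5E1 cells with no Xist UMI (pale red), with 95% Clopper-Pearson intervals. In the matrix fibroblast-like cells both 5E1 bars (5% and 1.79%) lie under the IgG bar (10.8%), while in the endothelial-like and alveolar myofibroblast-like cells only the pale bar does.

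AT2-like cells had 807 and 540 CPM, a ratio of 0.669 (0.635–0.704). Of the 33 genes 32 were lower and 17 at least 1.5-fold lower, against 8.45% of all genes, and the share was 9.06% (7.04–11.4%) and 5.72% (3.86–8.11%). Between cells with Xist, 628 and 103 in number, the ratio was 0.826 (0.760–0.898), with 25 genes lower, 7 of them at least 1.5-fold, against 13.7% of all genes, and 2 at least 1.5-fold higher, against 10.3%. The ratio of shares, 0.699, had an interval of 0.270–1.53. Alveolar macrophage-like cells differed least of the 5 classes over all cells, with 1577 and 1434 CPM, a ratio of 0.909 (0.873–0.946), and 0.887 (0.834–0.942) between cells with Xist, where 5 genes were at least 1.5-fold lower, against 9.54% of all genes. Over all cells 23 of 33 genes were lower and 10 higher, and none reached 1.5-fold, against 6.54% of all genes lower and 5.31% higher by that much. Their shares of 20.5% and 18.1% had overlapping intervals.

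Other cell cycle genes were compared as lists. Of 50 further G2 and M genes, all were lower in the 5E1 matrix fibroblast-like cells and 46 at least 1.5-fold lower, against 10.5% of all genes, with a median of −1.71 (log2), close to the −1.76 of the 33. Pbk, a mitotic kinase, was at 35.6 and 4.17 CPM (ratio 0.117, 0.071–0.183), the lowest ratio among those with at least 100 UMIs. Pttg1, known as securin, was the highest at 77.6 and 60.9 CPM (ratio 0.785, 0.685–0.898). The 28 S phase genes, which copy DNA, were all lower, 21 of them at least 1.5-fold, against the same 10.5%, with a median of −0.92. Among them Hells and Uhrf1 were lowest, at 19.4 and 5.01 CPM and 13.6 and 3.76 CPM. In the cells with Xist the medians were −1.30 for the 33, −1.17 for the other G2 and M genes and −0.31 for the S phase genes, of which 20 of 28 were lower and 8 at least 1.5-fold lower, against 13.7% of all genes. The S phase median was thus nearer to 0 than that of the 33 in both sets.

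Upstream of these genes, Foxm1, the transcription factor that drives G2 and M genes, was at 12.2 and 4.38 CPM in the matrix fibroblast-like cells (ratio 0.360, 0.216–0.574), and 10 of 12 activators were lower, 7 of them at least 1.5-fold, against 10.5% of all genes. With Xist, 9 of 11 were lower, 5 of them at least 1.5-fold, against 13.7% of all genes. The single genes of this paragraph and the next were not split by Xist. Cdk4, the kinase of early G1, was at 323 and 205 CPM (ratio 0.636, 0.592–0.683) and its partner Ccnd1 at 17.9 and 10.8 CPM. Of 20 brakes of the cycle, 19 had enough UMIs and went both ways, with 10 lower and 9 higher. The Cdk inhibitor Cdkn1a was at 61.8 and 28.2 CPM (ratio 0.456, 0.376–0.549). Btg2 was at 312 and 533 CPM (ratio 1.70, 1.62–1.79) and Gadd45b at 112 and 209 CPM (1.87, 1.72–2.03), both of them genes induced early by stress and growth signals. In the alveolar myofibroblast-like cells, Btg2 was at 300 and 857 CPM (2.86, 2.75–2.98) and Gadd45b at 49.5 and 119 CPM.

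In the alveolar myofibroblast-like cells the S phase list (median −0.50, 28 of 28 lower, 10 at least 1.5-fold against 9.77% of all genes) and the other G2 and M genes (median −0.49, 49 of 50 lower) had medians like that of the 33. Rrm2, a subunit of ribonucleotide reductase, was at 125 and 61.2 CPM (ratio 0.491, 0.441–0.547), and Ccnd2, a D cyclin, was higher at 463 and 565 CPM (1.22, 1.17–1.27). Foxm1 was at 14.3 and 8.16 CPM, and Myc, a growth-promoting transcription factor, at 14.5 and 26.8 CPM (ratio 1.85, 1.51–2.27). With Xist the medians were −0.13 for the 33 and −0.22 for the S phase list, beside −0.11 for all genes.

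Pericyte-like cells, the support cells of capillaries, had different values for the 2 phases. Their S phase list was lower in 28 of 28 genes, 17 of them at least 1.5-fold, against 8.10% of all genes, with a median of −0.65. The 33 G2 and M genes had a median of −0.13, with 26 lower and 2 at least 1.5-fold lower. With Xist only, 72 cells in the 5E1 library, the medians were −0.17 for S phase and 0.15 for the 33. Adventitial fibroblast-like cells had −0.43 for S phase, with 10 genes at least 1.5-fold lower against 6.60% of all genes, and 0.17 for the 33, with 13 lower and 20 higher. The difference between the 2 lists has no test in 1 library per condition.

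**Figure D5:**
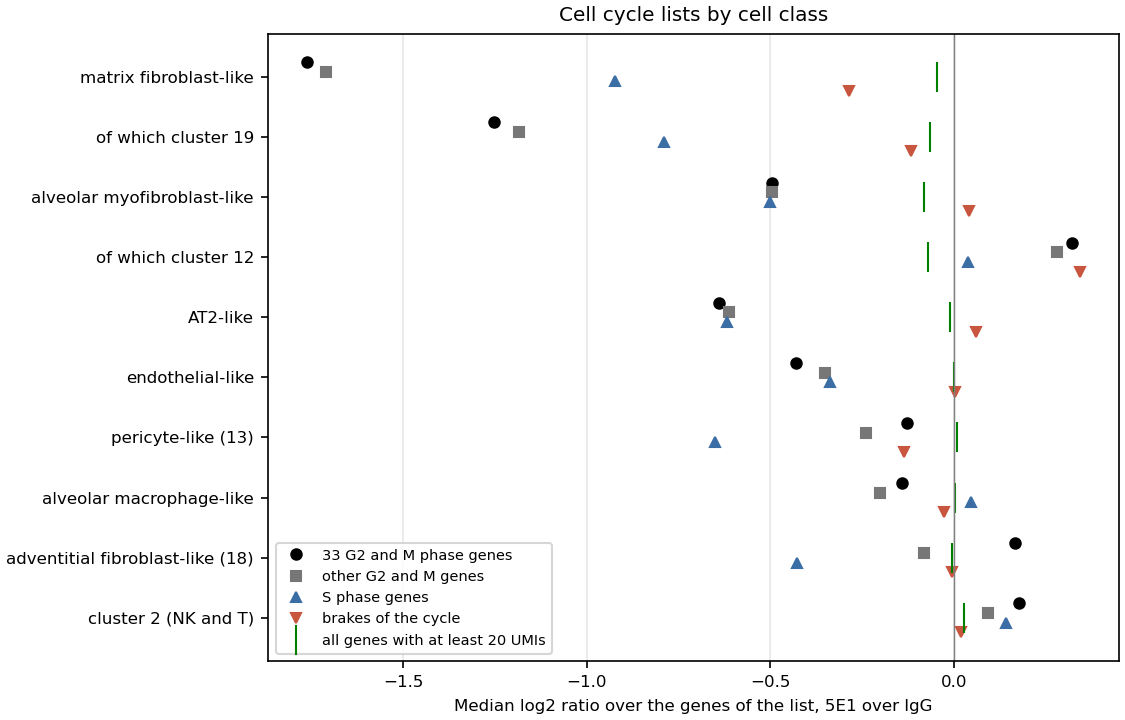
Median log2 ratio, 5E1 over IgG, over the genes of each cell cycle list that had 20 or more UMIs in sum, by class or cluster, with the median of all such genes as a green tick. The 33 genes (circles) and the other G2 and M genes (squares) lie together at the far left in the matrix fibroblast-like cells (−1.76 and −1.71), S phase genes (triangles) follow at −0.92.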

How the data were processed

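Single-cell RNA was counted in whole-lung suspensions, 1 library per condition. The deposited matrices hold UMI counts per gene and cell, which the authors produced using Cell Ranger 3.1.1 and mm10, per the submitters' processing notes, while the matrix headers name software version 3.0.0. The authors' deposited table of annotated cells gives each cell its library and cluster, and cells outside it were not used. No doublet caller was run, and cells that may be doublets were kept.

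Groups came from the treatment label. UMIs of the 33 genes were summed per library and cluster or class, scaled to all UMIs of it (CPM) and given exact 95% Poisson intervals. Ratios have exact conditional binomial intervals, which for shares of cells are approximate, and shares have Clopper-Pearson intervals. For shares, every cell was first thinned to 1000 UMIs (random seed 1). This left out 215 of 13509 IgG and 153 of 9454 5E1 cells as shallower. Log2 ratios had 0.5 UMI added to each sum and were kept where the 2 libraries gave 20 or more UMIs in sum, and all 33 genes passed this in the 5 classes. With 1 library per condition no test was made. The script was checked on simulated counts.

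The members and lists were chosen with earlier results of these data known. All 33 genes could be named. Of other lists, genes with at least 100 UMIs in the class were eligible, first those with the highest and lowest ratio, up to 6 a list, and Foxm1, Cdk4 and Ccnd1 are among the 6 of their lists. The 10 genes most like the list could also be named, and 1 gene that these rules select is not reported here. Splits by Xist were planned, apart from the set with no Xist UMI and the set without shared barcodes, which were added after seeing the data. The split of the other lists was also added then. Python 3.11.15, numpy 2.4.6, scipy 1.17.1 and pandas 2.3.3 were used.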

Additional observations from a re-analysis of the deposited data

How the results depend on the processing

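No paired analysis was possible because each condition is 1 library and the labels carry no replicate numbers. Over the 8 classes and clusters and 166 recomputed values, 107 stayed within the interval of the original value (for medians, that of the summed level in log2), 52 moved past it and 7 changed direction.

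Cells with Xist: level ratios were 0.934 in alveolar myofibroblast-like, 0.396 in matrix fibroblast-like, 0.826 in AT2-like and 0.935 in all cells, and reversed to 1.01 in endothelial-like cells. Ratios of shares were 0.461 in matrix fibroblast-like cells and reversed to 1.03, 1.02 and 1.02 in alveolar myofibroblast-like, endothelial-like and all cells. Medians were −0.13, −1.30, −0.21 and −0.23 in alveolar myofibroblast-like, matrix fibroblast-like, alveolar macrophage-like and AT2-like cells, −0.067 over all cells and reversed to 0.040 in endothelial-like cells. 5E1 cells with no Xist: level ratios were 0.623, 0.152, 0.613, 0.852 and 0.669 in alveolar myofibroblast-like, matrix fibroblast-like, endothelial-like, alveolar macrophage-like and all cells, and ratios of shares 0.165, 0.548 and 0.633 in matrix fibroblast-like, endothelial-like and all cells.

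Clusters weighted alike: the alveolar myofibroblast-like level ratio reversed to 1.19 and that of shares to 1.25, the matrix fibroblast-like level ratio was 0.417, and all cells had 0.906 and 0.910. Median-ratio scaling gave the alveolar myofibroblast-like class 0.764 and a median of −0.41. A mean over cells gave 0.698 there and 0.748 over all cells. Without the 2% deepest cells the ratios were 0.704, 0.269 and 0.706 in alveolar myofibroblast-like, matrix fibroblast-like and AT2-like cells. Thinning gave 0.759 in AT2-like and 0.752 in all cells, leaving out Top2a and Mki67 gave 0.757 over all cells, and leaving out shared barcodes gave 0.756 in endothelial-like cells. With 1 list UMI as the limit the ratio of shares of matrix fibroblast-like cells was 0.632, nearer to 1. The cause was not tested. Depth limits Ttk, Bub1, Bub1b and the kinesins, which rest on 7 to 24 UMIs in the 5E1 cells of cluster 19.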
